A study of Homo sapiens with 4 samples.

Results

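The 10 genes described here handle platinum and other anticancer drugs: ABCB1, ABCC1, ABCC2 and ABCG2 export drugs, SLC31A1, ATP7A and ATP7B move copper and platinum across membranes, GSTP1 and MGST2 belong to the glutathione transferases, and DPYD breaks down pyrimidines. They were chosen by name, as drug transport and detoxification genes, with earlier results of these data known. Every probe of the array whose transcript accession belongs to any of them was taken. This gave 15 probes, all of which passed the filter on dim probes, out of 39151 probes kept in all and 16882 genes with a named probe. MGST2 and DPYD are also among the genes that the study named from these same arrays, so that their values here are no independent evidence of a change. The same holds for KRT8, KRT18, LUM, TAP1, GPX7, TRIM7 and HMGN5, which are named further below.

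The samples were 2 GALNT3 knockdown clones of A2780s, a human ovarian adenocarcinoma cell line (sh-G1 and sh-G2), and 1 control clone (ctrl) that was mock-transfected with the empty pSilencer 4.1 puro vector. Both knockdown clones carried the same short hairpin RNA against GALNT3, a glycosyltransferase that starts mucin-type O-glycosylation, in that vector, and all 3 clones shared the puromycin selection (5 µg/ml for 2 weeks). The line is known as sensitive to cisplatin, and the labels name no drug treatment. The study reported that GALNT3 suppression did not significantly change the response of A2780s to cisplatin or paclitaxel. Every array, of the Agilent 2-colour type, carried RNA of 1 knockdown clone together with RNA of ctrl, and each clone had 2 such arrays with exchanged dyes: replicate 1 has the knockdown RNA in Cy5 and replicate 2 in Cy3. The labels do not say whether the 2 arrays of a clone came from separate cultures, and the ctrl clone is written A27803 in some of them. Each group is 1 clone, so that a difference between a knockdown clone and ctrl and a difference between any 2 clones of the line cannot be told apart.

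Cisplatin and carboplatin enter cells partly through copper importers, are sequestered or exported by copper-transporting ATPases, and are inactivated by conjugation to glutathione. ATP-binding cassette pumps expel bulky drugs such as taxanes and anthracyclines, and their overexpression is a classic route to multidrug resistance in cultured cancer cells. Dihydropyrimidine dehydrogenase, the product of DPYD, catalyses the first and rate-limiting step of uracil and 5-fluorouracil breakdown.

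Upstream sequences were looked at for the members with a window, and those of DPYD, which had a called probe, and GSTP1, a textbook case of a drug-detoxifying gene with an antioxidant response element, are shown. RefSeq promoter windows on build GRCh38.p14 were matched for 8 of the 10 genes (all but MGST2 and ABCC1), in 16 windows of 250 bases that end just before an annotated transcription start. DPYD had 2 windows, which overlap. The DPYD window whose start lies farther upstream (chr1:97921060-97921309, minus strand) and the GSTP1 window (chr11:67583562-67583811, plus strand) are given 5′ to 3′, with GC boxes (GGGCGG, read on both strands) and the core of the antioxidant response element (TGACNNNGC, read on both strands) in capitals. These 2 motifs do not overlap each other in either window.
DPYD: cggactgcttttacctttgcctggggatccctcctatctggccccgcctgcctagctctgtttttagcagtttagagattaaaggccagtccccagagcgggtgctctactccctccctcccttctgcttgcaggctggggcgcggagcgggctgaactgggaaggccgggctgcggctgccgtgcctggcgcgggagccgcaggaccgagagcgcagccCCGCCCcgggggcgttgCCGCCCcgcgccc
GSTP1: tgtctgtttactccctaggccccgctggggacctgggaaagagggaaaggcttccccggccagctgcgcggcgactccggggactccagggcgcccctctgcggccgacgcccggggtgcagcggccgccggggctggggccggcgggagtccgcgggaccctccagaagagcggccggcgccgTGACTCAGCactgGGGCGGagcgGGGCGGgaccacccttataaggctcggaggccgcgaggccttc
The DPYD window shown held 2 GC boxes and 0 antioxidant response element cores, the other DPYD window held 3 and 0, and the GSTP1 window held 2 and 1. A GC box was found in 8 of the 16 member windows, and in 42.64% of the 35116 windows of that length in the table. Some windows of ABCG2 and of ATP7B overlap as well, so that the same box can be counted more than once. By gene, a GC box was found in 5 of the 8 members with a window. The antioxidant response element core was matched in GSTP1 alone among the members with a window, and in 10.91% of all windows. These are matches of letters and say nothing of binding.

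A few facts of the whole series touch every value. The GALNT3 probe was dimmer than all but 0.409% of the probes, its ratio averaged -0.01 on the log2 scale (limma adjusted p = 0.9628), and in each knockdown clone 1 of its 2 arrays had it well above background, so that the arrays could not check the labels. Between 88.1% and 97.0% of spots were well above background in the knockdown channel, the lowest share being that of sh-G2 replicate 2, against 95.9% to 97.6% in ctrl. Ratios of exchanged dyes correlated weakly across probes (r = 0.32 within sh-G1, r = 0.19 within sh-G2), whereas sh-G1 and sh-G2 arrays labelled the same way correlated more strongly (r = 0.61 and 0.73), so that the mean over both orientations is used throughout. Of the cell type markers, all 4 of ovarian carcinoma and all 5 of epithelium were well above background, but so were the 3 of leukocytes, and the mark alone is therefore weak evidence of expression. KRT18 and KRT8, keratins of simple epithelia, fell in the knockdown clones (mean log2 ratio -2.32 and -1.03, limma adjusted p = 0.0365 and 0.0317). The other epithelial markers, KRT19, CDH1 and EPCAM, were not called, with 0.04, -0.01 and -0.33 (limma adjusted p = 0.8542, 0.9658 and 0.4053). The summed level of the 3 measured fibroblast markers of 4 listed (COL1A2, DCN and LUM, each well above background in both channels of all 4 arrays) was 30680 to 33450 normalised intensity units in ctrl, 1819 to 2199 in sh-G1 and 7632 to 8129 in sh-G2. This sum adds different probes and in ctrl is mostly DCN (log2 level 14.68, against 12.41 for LUM and 8.78 for COL1A2). The mean log2 ratio was -3.17 for DCN, -3.31 for LUM and only -0.33 for COL1A2, and none of them passed limma (adjusted p = 0.1875, 0.2212 and 0.21). These differences stand beside the MGST2 and DPYD results below, and their part in them was not tested.

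Of the 15 member probes, 2 were higher in the knockdown clones by limma on the mean of both clones (adjusted p under 0.05 over all 39151 probes), 1 for MGST2 and 1 for DPYD, and 0 were lower. In the same fit, 0.138% of all probes were called higher and 0.7% lower. When a ratio of 1.5-fold or more was required on all 4 arrays, always one way, 1 member probe was higher, that of MGST2, and 0 were lower, against 0.23% and 0.92% of all probes. With 1 probe per gene, the brightest, 1 member gene was called higher (MGST2), and the background was 0.184% of genes higher and 0.906% lower. The median log2 ratio of the 10 genes was 0.03 against 0.00 over all genes. Of the 10, 8 lay within 1.5-fold of ctrl, where 96.77% of all genes lay. Because the study had already named MGST2 and DPYD from these arrays, these shares are no test of the members as a set.

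**Figure D1:**
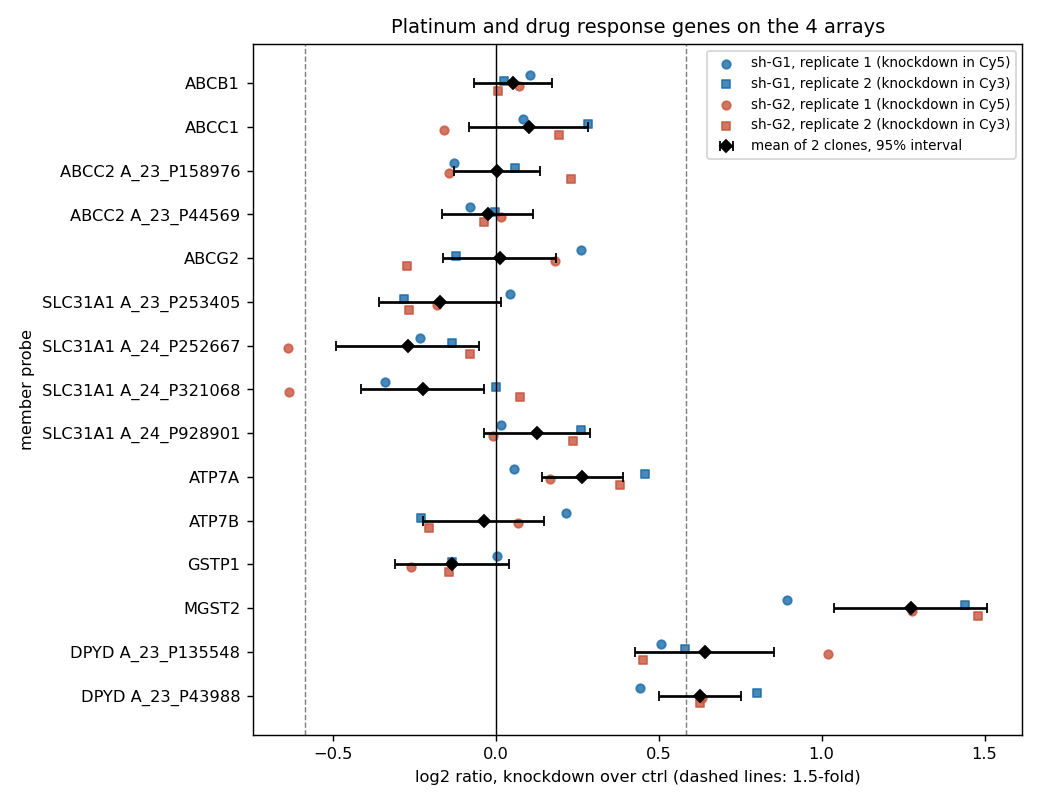
Log2 ratio of knockdown over ctrl (x axis) of each of the 15 member probes (y axis) on each of the 4 arrays, with the mean of the 2 clones and its 95% interval from limma as a black diamond with bars; dashed lines mark 1.5-fold. The MGST2 points lie between 0.89 and 1.48 and those of DPYD between 0.44 and 1.02, whereas the means of the other 12 probes lie between -0.27 and 0.27.

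MGST2, a microsomal glutathione S-transferase of the endoplasmic reticulum membrane that conjugates glutathione and can form leukotriene C4, had the largest ratio of the 10 genes. In sh-G1 the log2 ratio was 0.89 in replicate 1 and 1.44 in replicate 2, and in sh-G2 it was 1.28 and 1.48. All 4 arrays were past 1.5-fold, and the lowest was sh-G1 replicate 1. On the normalised log2 scale the ctrl signal of the probe was 10.33, 10.20, 10.42 and 10.22 on the 4 arrays and the knockdown signal 11.22, 11.64, 11.70 and 11.70. The lowest knockdown signal therefore lay above the highest ctrl signal, and the ctrl signal averaged 4.21 log2 units above the lowest signal well above background. The mean of the 2 clones was 1.27, that is 2.42-fold (standard error 0.08, 95% interval 1.04 to 1.51, n = 2 clones, limma adjusted p = 0.036), and 50 of the 39151 probes had a higher mean ratio. Each array measured the RNA of a whole culture, so that more transcript per cell and a larger share of cells with the transcript cannot be told apart.

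The MGST2 call depends on how the single ctrl clone is treated. When ctrl was assumed to vary like the knockdown clones, the ratio was the same and the limma adjusted p was 0.2373, and 0 probes of the whole array passed (1862 at an unadjusted p under 0.05). In the other 14 alternatives with a test the MGST2 probe was called, with a mean between 1.14 and 1.41 over all alternatives. In those with an array missing, a clone had a single dye orientation, and another counted the 4 arrays separately.

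DPYD was measured by 2 probes of similar ratio. The probe A_23_P43988 gave 0.44 and 0.80 in sh-G1 and 0.63 and 0.63 in sh-G2. The probe A_23_P135548 gave 0.51 and 0.58 in sh-G1 and 1.02 and 0.45 in sh-G2. Every one of these 8 values was above 0, and neither probe reached 1.5-fold on all 4 arrays. The mean was 0.63, or 1.54-fold, for A_23_P43988 (standard error 0.04, 95% interval 0.50 to 0.75, limma adjusted p = 0.0406) and 0.64, or 1.56-fold, for A_23_P135548 (standard error 0.07, 95% interval 0.43 to 0.85, limma adjusted p = 0.0893).

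The DPYD probes thus agreed in size, while only the dimmer one, A_23_P43988, passed the threshold. In ctrl, A_23_P135548 had spot intensities of 703 to 1141 and A_23_P43988 of 242 to 432.5, over local backgrounds near 40. The call of A_23_P43988 was lost without sh-G2 replicate 2 (limma adjusted p = 0.0896), without a trend on brightness (0.0605) and when ctrl was assumed to vary like the knockdown clones (0.2659). That of A_23_P135548 was gained in 4 of 15 alternatives with a test. Each of those 4 left a clone with a single dye orientation or counted the 4 arrays separately.

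**Figure D2:**
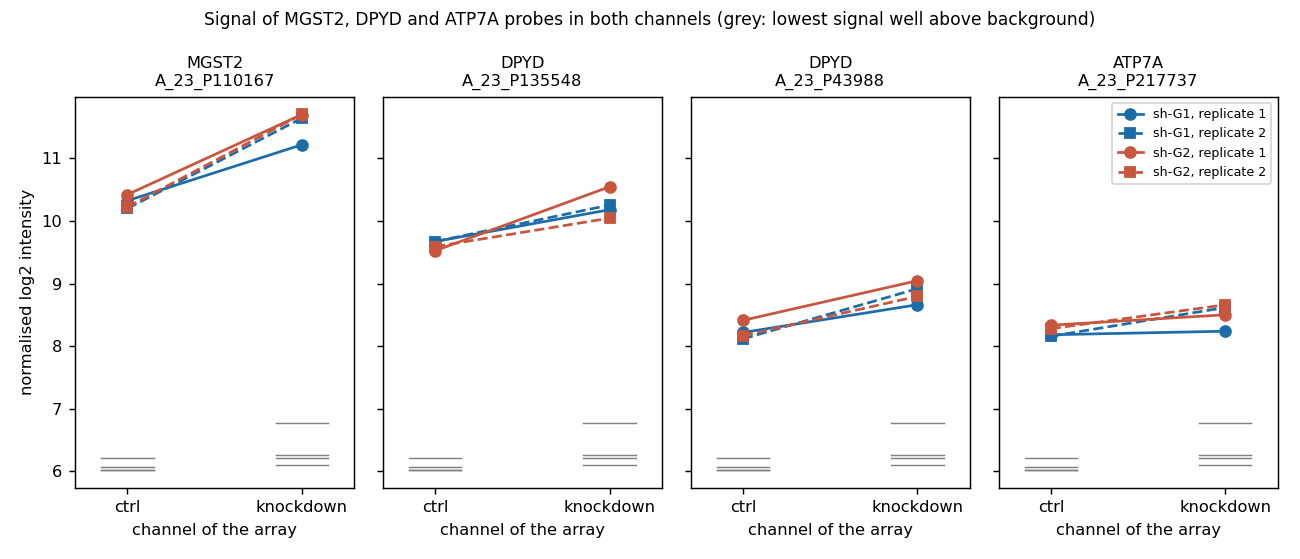
Normalised log2 intensity (y axis) in the ctrl and the knockdown channel (x axis) of each array for the MGST2 probe, both DPYD probes and the ATP7A probe; each line is 1 array and grey bars mark the lowest signal well above background in that channel. The MGST2 and DPYD lines slope upward on all 4 arrays without overlap of the channels, those of ATP7A differ by 0.06 to 0.46 between channels, and levels of different panels are not comparable because they come from different probes.

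GSTP1, the cytosolic pi-class glutathione S-transferase long associated with platinum resistance, was bright in every clone. Before normalization its ctrl spots read 148500 to 180300 intensity units and its knockdown spots 109500 to 126700, and 99.66% of probes were dimmer. On the normalised log2 scale the mean level was 17.18 in ctrl, 17.13 in sh-G1 and 16.96 in sh-G2. No spot was marked saturated. The probe is printed 10 times on each array, and the mean log2 ratio over its usable spots (6 to 10 per array) was 0.00 and -0.13 in sh-G1 and -0.26 and -0.14 in sh-G2. The SD over spots of 1 array was 0.03 to 0.09, so that arrays differed by more than the repeated spots did. The mean of the clones was -0.13 (standard error 0.06, 95% interval -0.31 to 0.04, limma adjusted p = 0.486). Thus the test did not separate GSTP1 from ctrl, and the interval reaches from a decrease of 0.31 to an increase of 0.04 on the log2 scale.

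The copper and platinum carriers had small ratios. ATP7A, a copper-exporting ATPase of the secretory pathway, gave 0.06 and 0.46 in sh-G1 and 0.17 and 0.38 in sh-G2. All 4 values were above 0, and both arrays with the knockdown RNA in Cy3 gave higher values than those with it in Cy5. The mean was 0.27, or 1.20-fold (standard error 0.04, 95% interval 0.14 to 0.39). ATP7A did not pass after adjustment over all probes (limma adjusted p = 0.152). It was called in 1 of 15 alternatives, in which each array entered as its own observation with a random block for clone (adjusted p = 0.0233).

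ATP7B, the related ATPase mutated in Wilson disease, gave 0.22 and -0.23 in sh-G1 and 0.07 and -0.20 in sh-G2. The sign followed the dye orientation in both clones, and the mean was -0.04 (standard error 0.06, 95% interval -0.22 to 0.15, limma adjusted p = 0.8782). Its probe was well above background in all channels, with 3626 to 5974 intensity units in ctrl.

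SLC31A1 encodes CTR1, the high-affinity copper importer through which part of the cisplatin enters cells, and was measured by 4 probes that differed in sign. A_23_P253405 gave 0.04, -0.28, -0.18 and -0.26 on the arrays in the order sh-G1 replicates 1 and 2, sh-G2 replicates 1 and 2. In the same order, A_24_P252667 gave -0.23, -0.13, -0.64 and -0.08, and A_24_P321068 gave -0.34, 0.00, -0.63 and 0.08. A_24_P928901 gave 0.02, 0.26, -0.01 and 0.24. The first 3 probes had means of -0.17, -0.27 and -0.22 and the last one of 0.13, with limma adjusted p between 0.3073 and 0.4726. Only A_24_P252667 was below 0 on all 4 arrays, and its value in sh-G2 replicate 1 lay past 1.5-fold, as did that of A_24_P321068 on the same array. No other array value of the 12 member probes outside MGST2 and DPYD did (2 of 48). The 95% intervals were -0.36 to 0.02 for A_23_P253405, -0.49 to -0.05 for A_24_P252667 and -0.41 to -0.03 for A_24_P321068. That of A_24_P928901, the dimmest of the 4 in ctrl, was -0.03 to 0.29. These intervals leave out the spread of ctrl clones. The first 3 probes were thus lower in the mean of each clone and the last one was higher. The 4 SLC31A1 probes did not all share a direction, and none passed after adjustment.

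The efflux pumps had mean log2 ratios between -0.02 and 0.10. ABCB1 encodes P-glycoprotein, the pump of taxanes and anthracyclines, and its probe is also printed 10 times. The log2 ratio was 0.11 and 0.03 in sh-G1 and 0.07 and 0.01 in sh-G2, with an SD over the spots of an array of 0.13 to 0.25. The mean was 0.05 (standard error 0.04, 95% interval -0.07 to 0.17, limma adjusted p = 0.6914). The signal was dim in all clones, with 156.8 to 239.2 intensity units in ctrl over a background of about 40, or 1.44 log2 units above the lowest signal well above background. The same was true of the ABCC2 probe A_23_P158976, at 1.27 log2 units above it, so that small ratios of these probes rest on little signal.

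ABCC1, the glutathione-conjugate exporter MRP1, gave 0.09 and 0.28 in sh-G1 and -0.16 and 0.20 in sh-G2. The mean of ABCC1 was 0.10 (standard error 0.06, 95% interval -0.08 to 0.28, limma adjusted p = 0.6114). ABCC2, the related exporter MRP2 that has been linked to cisplatin export, had mean log2 ratios of 0.01 by A_23_P158976 and -0.02 by A_23_P44569 (limma adjusted p = 0.9792 and 0.8936), and its 8 array values lay between -0.14 and 0.23. ABCG2, the breast cancer resistance protein that exports topotecan and mitoxantrone, gave 0.26 and -0.12 in sh-G1 and 0.18 and -0.27 in sh-G2. Its sign followed the dye orientation in both clones, and the mean was 0.01 (standard error 0.06, 95% interval -0.16 to 0.18, limma adjusted p = 0.9607). Over the 12 probes of the 8 genes other than MGST2 and DPYD, the 95% intervals of the mean ran from -0.49 at the lowest bound to 0.39 at the highest. These bounds lie inside 1.5-fold (0.58 on the log2 scale), but the intervals rest on 2 clones and leave out the spread of ctrl clones. They would be wider if ctrl were assumed to vary like the knockdown clones. The intervals therefore do not place these genes within 1.5-fold.

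Among all 15 member probes, 5 were above 0 and 1 was below 0 on all 4 arrays, against 6.212% and 9.042% of all probes. The sign followed the dye orientation in both clones for 4 member probes (ABCC2 A_23_P158976, ABCG2, SLC31A1 A_24_P321068 and ATP7B), and for 40.47% of all probes. The 5 probes above 0 on every array were those of ABCB1, ATP7A, MGST2 and DPYD.

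The 2 knockdown clones were then compared with each other. In limma on the 4 arrays with terms for each clone and for dye, 0 member probes differed between sh-G2 and sh-G1 after adjustment and 0 at an unadjusted p under 0.05, and 0.123% of all probes were called different, so that a count of 0 among 15 probes is no result about the members. The difference of sh-G2 minus sh-G1 was 0.21 for MGST2 (standard error 0.15, limma adjusted p = 0.8574), 0.01 for DPYD by A_23_P43988 (standard error 0.12) and 0.19 by A_23_P135548 (standard error 0.18). The spread in this fit is that between arrays with exchanged dyes, which may be technical, and both clones share the ctrl RNA.

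**Figure D3:**
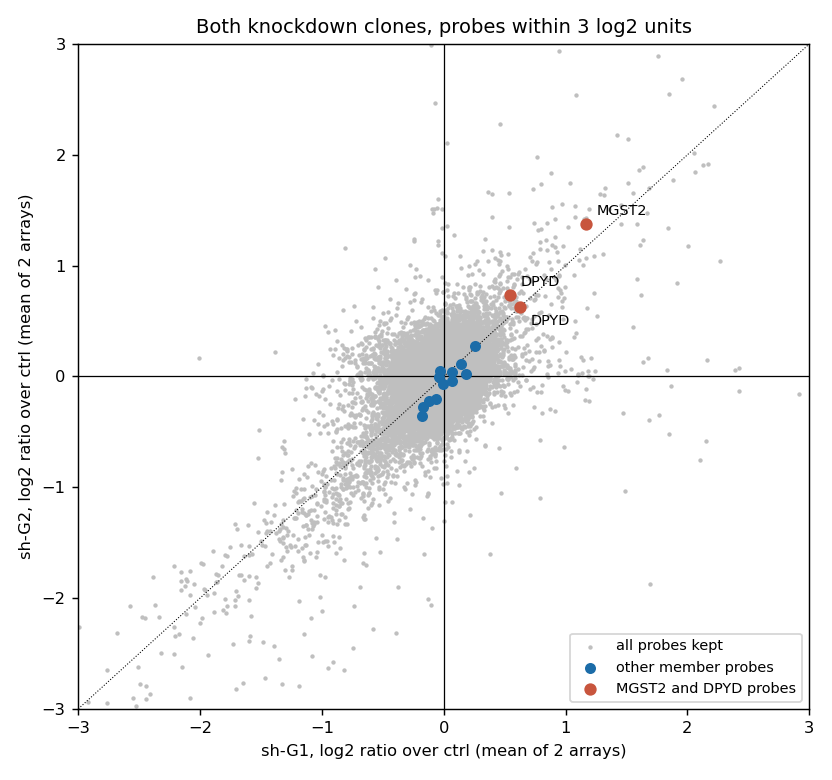
Mean log2 ratio over ctrl of sh-G1 (x axis) against that of sh-G2 (y axis), each over 2 arrays, for all probes within 3 log2 units (grey), the MGST2 and DPYD probes (red) and the other 12 member probes (blue); the dotted line marks equal values. The red points lie above 0 in both clones and the blue points lie within the dense centre; both axes share the ctrl clone, so part of any common direction comes from it.

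The genes whose 4 array ratios were most like those of MGST2, by Euclidean distance over the 4 log2 ratios, were KRT222 (distance 0.27), TRIM7 (0.37) and HMGN5 (0.44). For DPYD, by probe A_23_P43988, they were LONRF1 (0.14), LRRC20 (0.17) and DUSP13A (0.18). Of these 6 genes, KRT222 passed the threshold, at 1.28 on the log2 scale (limma adjusted p = 0.0459).

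The other genes of the same pathways were read from 6 lists, by the brightest probe of each gene. Among all genes by that probe, 0.184% were called higher and 0.906% lower. A count of 0 in lists this small is therefore no result about them. Of the 15 genes measured on the list of other drug efflux pumps, 0 were called higher and 1 lower. This was TAP1, which carries peptides into the endoplasmic reticulum for MHC class I and is a relative of the drug pumps by sequence. It gave -1.25 and -1.40 in sh-G1 and -1.53 and -1.73 in sh-G2. The mean was -1.48, or 2.78-fold lower in the knockdown clones (standard error 0.10, limma adjusted p = 0.0423). The TAP1 call was lost with both channels required to be well above background (adjusted p = 0.051), without a trend on brightness (0.0503) and when ctrl was assumed to vary like the knockdown clones (0.2763). The median of this list was -0.05, and 13 of the 15 genes lay within 1.5-fold. The other gene outside it was ABCA3, a lipid transporter, with -1.22 and -0.95 in sh-G1 and -0.43 and 0.22 in sh-G2, and a mean of -0.60 (limma adjusted p = 0.4851). The remaining 13 had means between -0.26 (ABCC6) and 0.12 (ABCA2).

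The 38 other glutathione enzymes measured had a median of 0.01. Of them 0 were called in either direction, against 0.184% of all genes called higher and 0.906% lower. The nearest relatives of MGST2 on the list had ratios of 0.24 (MGST1) and 0.09 (MGST3), and LTC4S, which also makes leukotriene C4, had 0.11. The lowest ratio was that of GSTM3, a mu-class transferase, with -0.65 (limma adjusted p = 0.0685), and the highest that of NFE2L2, which encodes the NRF2 transcription factor, with 0.31 (limma adjusted p = 0.4281). GPX7, a peroxidase of the endoplasmic reticulum, had 2 probes that differed: the brighter gave -0.18 (limma adjusted p = 0.3325), while the dimmer, A_23_P73972, gave -2.29, -2.13, -2.60 and -2.08 on the 4 arrays, with a mean of -2.27 (limma adjusted p = 0.0176). In the knockdown clones the dimmer probe was well above background on 2 of 2 arrays of sh-G1 and 1 of 2 of sh-G2.

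Of the 26 other copper and platinum handling genes measured, 0 were called, and their ratios lay between -0.28 (MT1E, a metallothionein) and 0.16 (COX17, a mitochondrial copper chaperone). Of the 26 other pyrimidine genes measured, 0 were called, with a median of 0.09. DPYS, which acts right after DPYD in the same breakdown pathway, had a ratio of 0.09, and TYMS, thymidylate synthase and the target of 5-fluorouracil, had 0.15. Of 29 excision and mismatch repair genes, 0 were called, including ERCC1, a subunit of the nuclease that cuts DNA at platinum adducts, with -0.07. Of 19 microtubule genes of the response to paclitaxel, 0 were called, and STMN3 had the lowest ratio with -0.50 (limma adjusted p = 0.3077). With 0.184% of all genes called higher and 0.906% lower, the counts of 0 in these lists are no result about them. The 153 list genes together had a median of 0.00 and 98.04% lay within 1.5-fold, against 96.77% of all genes.

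**Figure D4:**
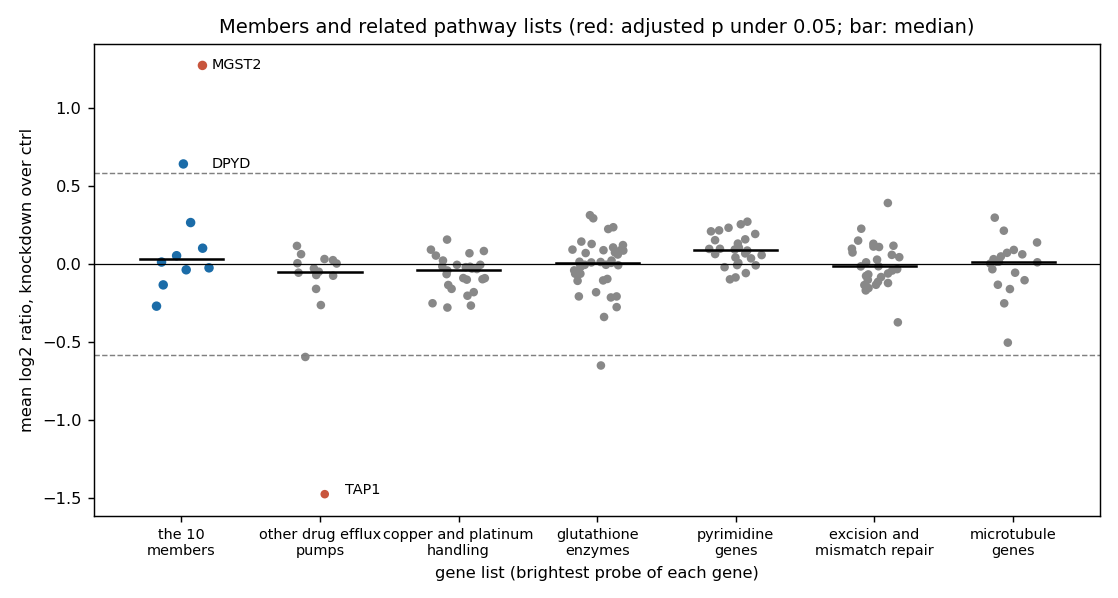
Mean log2 ratio of knockdown over ctrl (y axis) of the brightest probe of each gene, for the 10 members and the 6 related lists (x axis, points spread sideways for legibility); red points passed limma at an adjusted p under 0.05, black bars are medians and dashed lines mark 1.5-fold. MGST2 at 1.27 and TAP1 at -1.48 are the red points, and the list medians lie between -0.05 and 0.09.

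**Figure D5:**
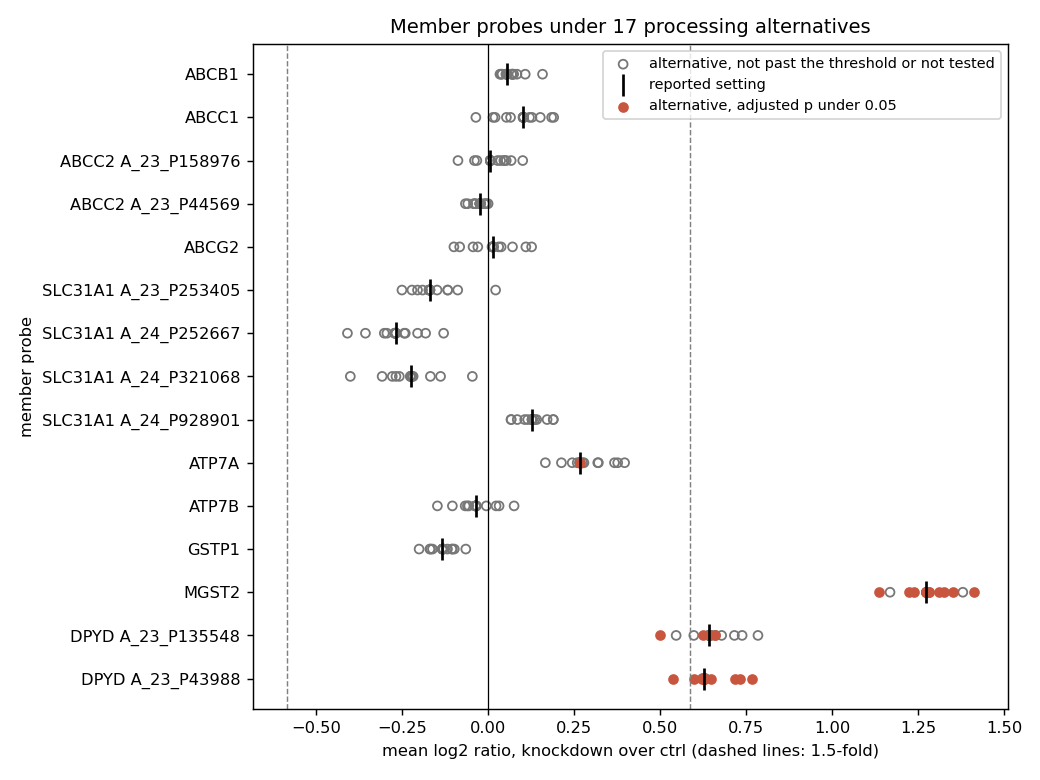
Mean log2 ratio of each member probe (y axis) under the 17 processing alternatives that give a value for it; red points passed limma at an adjusted p under 0.05 in that alternative, open points did not or had no test, and the black bar is the reported setting. MGST2 stays between 1.14 and 1.41 and the DPYD probes between 0.50 and 0.78, while several probes near 0 lie on both sides of it.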

How the data were processed

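RNA of 2 A2780s clones with GALNT3 knockdown was hybridised against that of 1 ctrl clone on 4 Agilent arrays. The deposited scanner files, per the file headers, hold the median spot and background intensity of each channel and a log10 ratio of Cy5 over Cy3 that the software computed (Agilent Feature Extraction 8.5.1.1 per the submitters' processing notes, 10.5.1.1 per the file headers). In the deposited series matrix the second sh-G1 column holds the error of the log10 ratio, so that 3 arrays were used from it. Intensities were corrected with normexp (offset 50) and loess within arrays (limma 3.58.1, R 4.3.3). Spots with outlier marks were left out, ratios were turned to knockdown over ctrl, spots of a probe and both arrays of a clone were averaged. Kept were probes for which, on each array, at least 1 channel was marked well above background (39151 of 41000 probes). The mean of both clones was tested against 0 with limma (lmFit, eBayes with trend) and Benjamini-Hochberg adjustment over all probes kept. The ctrl clone is the common reference, so that this test leaves out the spread of ctrl clones. The p-values measure only the spread between the 2 clone means, moderated by that of probes of similar brightness. The spread between the arrays of a clone enters only through these means. Channel levels were scaled between arrays with Aquantile. Precision is limited by the number of clones, 2 with knockdown and 1 ctrl clone, and by the number of arrays, 2 per clone.

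Probes were named through the RefSeq table (GRCh38.p14) by accession without version, which matched 25398 of 41000 probes, and the probe sequences were not used here. Promoter windows came from RefSeq. The text names all members, list genes past either rule, the 3 probes nearest to each called member, and GALNT3. GPX7, GSTM3 and the other list genes named were chosen after their values were seen, for their role or as the extremes of a list. The members and lists were chosen with earlier results of these data known. Alternatives changed the ratio, background, normalization, filter, spot marks, arrays, clones, ctrl spread, block, trend and fold rule. The fits were tested on simulated data.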

Additional observations from a re-analysis of the deposited data

How the results depend on the processing

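The MGST2 and DPYD probes kept their direction under every alternative run. MGST2 lost its call when ctrl was assumed to vary like the knockdown clones (mean 1.27, limma adjusted p = 0.2373), as did DPYD A_23_P43988 (0.63, 0.2659), which also lost it without a trend on brightness (0.63, 0.0605) and without sh-G2 replicate 2 (0.63, 0.0896). Leaving out 1 array at a time gave 0.54 to 0.72 for DPYD A_23_P43988 and 0.50 to 0.78 for A_23_P135548, which was called without sh-G1 replicate 2 (0.62) or sh-G2 replicate 1 (0.50), with the series matrix values (0.66, 0.0429) and with clone as a random block (0.64, 0.0037). The random block also called ATP7A (0.27, 0.0233). With an array left out, and with the series matrix values, a clone had a single dye orientation, so that a dye effect did not cancel.

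Member probes called higher, 2 in the text, numbered 0 with the ctrl spread, 4 with the random block, 1 without a trend, 3 with the series matrix values and 1 to 3 with 1 array left out. Probes at least 1.5-fold on every array, 1 in the text, numbered 0 at 2-fold, 3 by the mean of the clones, 1 to 2 with 1 array left out and 2 without clone sh-G1.

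Several probes near 0 changed sign. ABCG2 was -0.031 with median centring, -0.10 to 0.13 with 1 array left out and -0.045 without clone sh-G1. ABCC2 A_23_P158976 was -0.089 to 0.10 with 1 array left out and -0.034 without clone sh-G2. ATP7B was -0.15 to 0.075 with 1 array left out. With the series matrix values ABCC1 was -0.037, SLC31A1 A_23_P253405 0.021 and ATP7B 0.022. The cause was not tested.

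In the lists, TAP1 lost its call (0 genes of the efflux pump list lower) with both channels well above background (adjusted p = 0.051), with the ctrl spread (0.2763) and without a trend (0.0503). With any probe of a gene, 1 glutathione enzyme, GPX7, was lower. With 1 array left out, glutathione enzymes called lower numbered 0 to 1 (GSTM3) and repair genes called higher 0 to 1 (DDB2). With the random block, glutathione enzymes numbered 1 higher (GCLM) and 5 lower (GSTM3, GPX3, GSTO1, GSTO2 and GSTT2), pyrimidine genes 2 higher (DCTD and RRM2), repair genes 1 higher (DDB2) and 1 lower (GTF2H3), copper genes 2 lower (MT1E and SLC47A1) and microtubule genes 2 lower (STMN3 and TUBB2B). TUBB2B alone was lower with the series matrix values, 1 microtubule gene. Over all probes, 54 were called higher and 274 lower in the text, 118 and 408 with the software's ratio, 213 and 789 with the series matrix values, 848 and 1721 with the random block, 0 with the ctrl spread, and 56 to 339 higher and 322 to 867 lower with 1 array left out. The random block counts the 4 arrays separately. Dim probes (ABCB1 and ABCC2 A_23_P158976, 1.44 and 1.27 log2 units above the lowest signal well above background in ctrl) limit what small ratios can show.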
